A study of Saccharomyces cerevisiae with 4 samples.

Results

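FIT1 (YDR534C), FIT2 (YOR382W) and FIT3 (YOR383C) encode mannoproteins of the yeast cell wall that help the cell hold iron bound to siderophores. The 3 genes were taken by symbol from the array's annotation, out of 353 named genes. FIT2 and FIT3 were chosen by their treatment ratios, which had been seen to lie below 0 while those of other wall mannoproteins lay above it. FIT1 was added as the remaining member of the family, whatever its ratio. The treatment ratios of the 3 genes are therefore given as a description and were not tested against 0.

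Siderophores are small iron chelators made by many microbes. Saccharomyces cerevisiae makes none of its own but takes up iron from those of others, either through transporters of the ARN family or after reduction by the FRE reductases at the cell surface. The FIT proteins sit outside these systems, attached to the wall through a GPI anchor, a lipid tail that is cleaved when the protein is passed on to the wall glucan. Their genes are known as targets of the iron-responsive activator Aft1, which turns them on when iron is scarce.

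The RNA came from strain BY4741, a laboratory strain with auxotrophic mutations, carrying a deletion of HOG1, the MAP kinase gene of the high osmolarity pathway. Cells grown in rich medium at 24 °C were treated with Congo Red at 30 µg/ml for 4 h. Congo Red is a dye that attaches to the chitin and glucan of the wall and interferes with its assembly. The untreated cells, which carry the same HOG1 deletion, were the other part of the same culture, and no strain with HOG1 intact was analysed here. Treated and untreated RNA were hybridised together on 4 two-channel arrays of cell wall genes, with the Congo Red RNA in channel 2 on arrays 1 and 3 and the channels exchanged on arrays 2 and 4. The labels do not say whether the 4 arrays stand for separate cultures, so each p-value reflects only how the arrays vary, and that variation may be technical.

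All values are log2 ratios between the channels of an array. The sources used here do not state which channel is the numerator. A ratio above 0 is read here as higher in Congo Red, which is the likely direction because genes known for induction by wall stress then lie above 0. The values were used as deposited on all 4 arrays. Whether arrays 2 and 4 had already been turned in sign is not stated. Pearson's r across named genes, which are not independent replicates, was 0.26 to 0.44 between arrays of opposite channel order. Between arrays of the same order it was 0.73 to 0.75. Turning arrays 2 and 4 would make the r of opposite orders negative. As deposited, 15 of 31 tested wall mannoprotein genes outside the FIT family lay above 0 on every array, and 1 below. CWP1, the highest of them, had 2.69, 3.80, 3.17 and 3.62, which would take both signs if arrays 2 and 4 were turned. HOG1 itself stood at 1.43, -1.73, -0.23 and 1.25 on arrays 1 to 4. Where its probe lies relative to the deletion is not stated, so these values do not check the strain. Signal intensities were not analysed here, so only ratios, and no levels, can be given for the FIT genes. In RNA of whole cultures, fewer cells expressing a gene and less RNA per cell cannot be told apart.

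FIT2 lay furthest below 0 of the family. Its log2 ratios were -1.31, -1.51, -1.17 and -0.87 on arrays 1 to 4, a mean of -1.21 ± 0.27 (SD, n = 4), or 2.32-fold lower in Congo Red. The ratio was negative on every array and reached from 1.82-fold lower on array 4 to 2.85-fold lower on array 2. Of the 348 tested genes, those with a value on at least 3 arrays, FIT2 had the second lowest mean. The lowest was AGA1, an agglutinin gene, whose ratios were 0.06, -3.46 and -0.30 on the 3 arrays that measured it. FIT2 therefore had the lowest mean of any gene valued on all 4 arrays as deposited. With arrays 2 and 4 turned in sign, it ranked 137 of 348 from the bottom.

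FIT3 lay below 0 by a smaller amount. Its log2 ratios were -0.75, -0.76, -0.24 and -0.52 on arrays 1 to 4, a mean of -0.57 ± 0.24 (SD, n = 4), or 1.48-fold lower in Congo Red. The ratio closest to 0 was that of array 3, which also had the highest median over named genes (0.23, against -0.12 to 0.08 on the others). With each array's median subtracted, the FIT3 values were -0.76, -0.65, -0.47 and -0.60 (mean -0.62, SD 0.12), so that the arrays lay closer together. FIT2 with the medians subtracted was -1.32, -1.39, -1.39 and -0.95 (mean -1.26, SD 0.21).

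FIT1 did not share the sign of the other two. Its log2 ratios were 0.12, 1.14, 0.76 and 1.59 on arrays 1 to 4, a mean of 0.90 ± 0.62 (SD, n = 4), or 1.87-fold higher in Congo Red. All 4 ratios were above 0, but array 1 was close to it, at 1.09-fold, while array 4 stood at 3.01-fold. The description of the family as genes that fall does not hold for FIT1 in these values. Among the 348 tested genes, 51 (14.7%) had ratios below 0 on all measured arrays and 95 (27.3%) above 0. FIT2 and FIT3 belong to the 51, but they were chosen for ratios below 0, so nothing is read from this. FIT1 belongs to the 95. These signs hold for the values as deposited: with arrays 2 and 4 turned in sign, each of the 3 genes had 2 arrays on either side of 0, and the means were -0.025 for FIT2, 0.071 for FIT3 and -0.46 for FIT1.

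**Figure D1:**
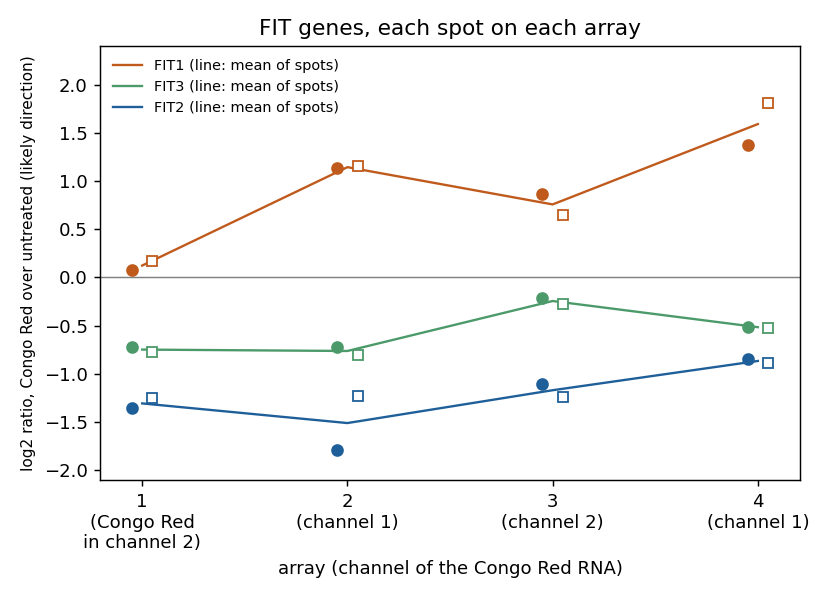
Log2 ratio of Congo Red over untreated RNA (y axis, likely direction) for the 2 spots of FIT1, FIT3 and FIT2 on each of the 4 arrays (x axis, with the channel of the Congo Red RNA). Filled circles and open squares are the spots of a gene and lines join their means; the FIT1 spots lie above 0 and the FIT2 and FIT3 spots below it on every array.

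Each gene was spotted 2 times, and the spots of a gene share the RNA and the array. The spots of FIT3 had gaps of 0.05, 0.09, 0.06 and 0.01 on arrays 1 to 4. Those of FIT2 differed by 0.10, 0.56, 0.13 and 0.05, where the wide gap on array 2 came from ratios of -1.79 and -1.23. The spots of FIT1 differed by 0.09, 0.02, 0.23 and 0.44. Over tested genes with 2 spots the median gap was 0.06 to 0.08 per array, and the gaps were above it for FIT2 on arrays 1 to 3, FIT1 on arrays 1, 3 and 4, and FIT3 on array 2. No gap was wide enough to change a sign, and all 24 spot values kept the sign of their gene.

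FIT2 and FIT3 also differed in size. FIT2 minus FIT3 was -0.56, -0.75, -0.92 and -0.35 on arrays 1 to 4, a mean of -0.64 ± 0.25 (SD, n = 4). FIT2 was the lower of the pair on 4 of 4 arrays, by a factor of 1.56 on average. The exact two-sided sign-flip permutation test gave p = 0.12, the smallest that 4 arrays allow, so this test could not pass the threshold of 0.05 whatever the difference. It also used the ratios by which FIT2 and FIT3 were chosen, so nothing is read from it. FIT1 lay above FIT2 and FIT3 on every array. FIT1 minus FIT2 was 1.43, 2.65, 1.93 and 2.46, and FIT1 minus FIT3 was 0.87, 1.91, 1.00 and 2.11, on arrays 1 to 4.

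The ratios can also be set out by channel order. FIT2 and FIT3 were chosen for ratios below 0 and not by this contrast. Genes below 0 on every array cannot, however, have a channel order coefficient larger in size than their mean, so the choice limits it. FIT2 averaged -1.24 on arrays 1 and 3, with Congo Red in channel 2, and -1.19 on arrays 2 and 4. FIT3 averaged -0.50 on arrays 1 and 3 and -0.64 on arrays 2 and 4. Arrays 1 and 3 minus arrays 2 and 4 was thus -0.050 for FIT2 and 0.14 for FIT3. FIT1 averaged 0.44 on arrays 1 and 3 and 1.37 on arrays 2 and 4, a difference of -0.93, and arrays 2 and 4 both lay above arrays 1 and 3.

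In limma's model with a term for channel order, coded 1 where Congo Red was in channel 2 and -1 where it was in channel 1, the coefficient was -0.025 ± 0.14 for FIT2 and 0.071 ± 0.13 for FIT3 (SE). Neither passed (limma, Benjamini-Hochberg over 348 genes, adjusted p = 0.902 and 0.754). Because the choice of FIT2 and FIT3 limits the coefficient, these p-values do not show that they lack an effect of channel order. Differences between the genes in this coefficient were not tested. The coefficient of FIT1 was -0.46 ± 0.15 (SE; limma adjusted p = 0.134), which did not pass either. The coefficient passed for 23 of the 348 genes (6.61%), and 91 had an unadjusted p under 0.05. The count was 11 without array 1 and 49 once array medians were subtracted. The fit for FIT1 was added after its values were seen.

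**Figure D2:**
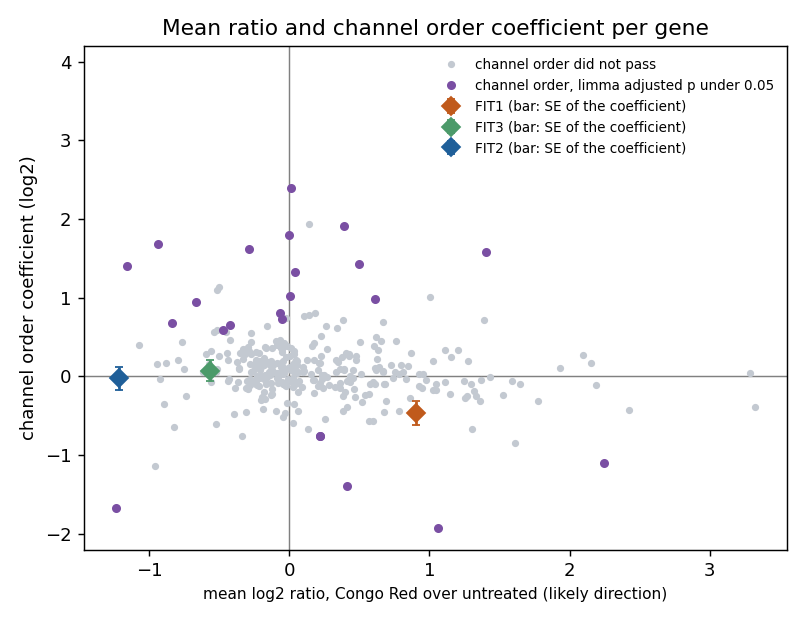
Mean log2 ratio over the 4 arrays (x axis, Congo Red over untreated, likely direction) against the channel order coefficient on the log2 scale (y axis, positive where arrays 1 and 3 are higher), 1 point per tested gene. Diamonds with SE bars are FIT1, FIT3 and FIT2, and purple points are the 23 genes past the test; FIT2 and FIT3 lie near 0 on the y axis and FIT1 at -0.46.

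As deposited, FIT2 was in the lower tail of the tested genes on each array. It ranked 7 of 343 from the bottom on array 1, 14 of 342 on array 2, 6 of 345 on array 3 and 21 of 342 on array 4. FIT3 ranked 13, 43, 54 and 48 from the bottom on the same arrays. FIT1 ranked in the middle on array 1, at 147 of 343 from the top, and at 29 of 342, 82 of 345 and 20 of 342 from the top on arrays 2 to 4. If arrays 2 and 4 were turned, their ranks from the bottom would be ranks from the top and the reverse. The SD over arrays was larger for FIT1 than for 276 of the 348 genes, while those of FIT2 and FIT3 (0.27 and 0.24) were close to the median of 0.28.

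**Figure D3:**
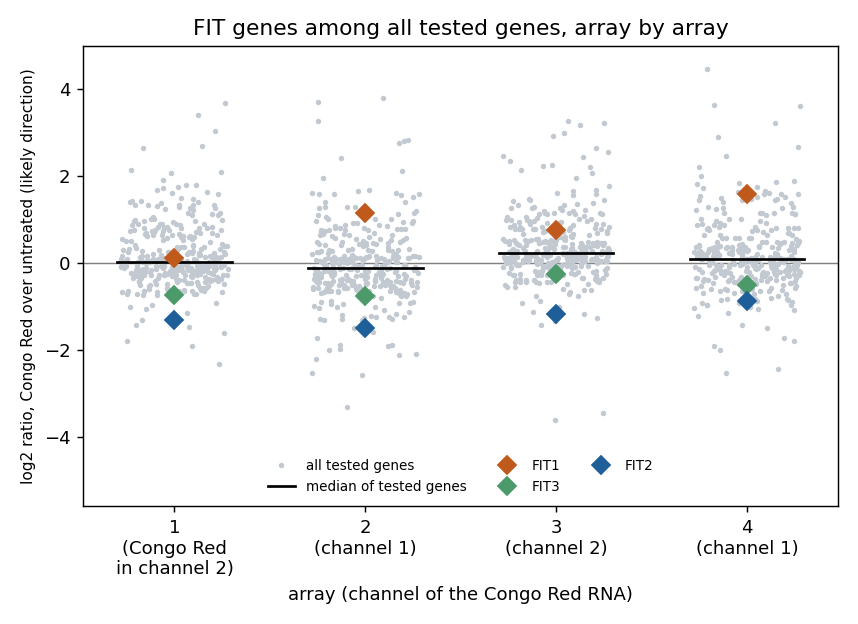
Log2 ratio (y axis, Congo Red over untreated, likely direction) of all tested genes (grey points) on arrays 1 to 4 (x axis), with the median of each array as a black line and FIT1, FIT3 and FIT2 as diamonds. As deposited, FIT2 lies in the lower tail on all 4 arrays, FIT3 between it and the median, and FIT1 above the median on each array, by least on array 1.

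Wall mannoproteins other than the FIT family leaned the other way from FIT2 and FIT3. These proteins of the wall are carried on a GPI anchor or, for the PIR family, bound to glucan directly. Of 31 tested genes written into the list, 10 were higher and 1 lower at a limma adjusted p under 0.05 (Benjamini-Hochberg over 348 genes), against 17.0% higher and 3.74% lower among all tested genes. The 13 lower calls over all genes became 3 without array 1, 6 without array 2 and 5 without array 3 or 4. The median log2 ratio of the 31 listed genes was 0.40, against 0.02 over all tested genes. The list was written with earlier results of these data known, so its direction is not independent evidence. The count of called genes in it was 6 without array 3, 7 without array 4, and 17 with a term for channel order.

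The 8 highest means in that list belonged to CWP1, the wall mannoprotein with the largest change (3.32 ± 0.49, SD), SPS2 (1.93 ± 0.78), PST1 (1.64 ± 0.23), SED1 (1.52 ± 0.27), NCW2 (1.37 ± 0.14), PIR3 (1.36 ± 0.39), SPI1 (0.93 ± 0.06) and CCW14 (0.78 ± 0.53), each over 4 arrays. All but CCW14 (limma adjusted p = 0.0725) rose, with limma adjusted p between 0.00148 and 0.0134. SED1 and SPI1 encode related structural proteins of the wall, and SPS2 is best known from spore formation. The call of SPS2, whose ratios ran between 0.97 on array 2 and 2.67 on array 4, was lost without array 3, while those of the other 6 held with any array left out. At the other end, TIR3, a mannoprotein gene of the cold-shock type, was the single gene of the list that fell, with ratios of -1.47, -0.52, -1.02 and -0.58 (limma adjusted p = 0.0313), a call lost without array 1, 3 or 4. The other 7 lowest were AGA1, PRY3, ECM33, EGT2, TIP1, FLO1 and SAG1, whose means lay between -1.23 and -0.00465 and did not pass.

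FIT2 minus the median of these other mannoproteins was -1.51, -1.95, -1.61 and -1.33 on arrays 1 to 4, in log2 units. Between 0 and 2 of the others had a lower ratio than FIT2 on any array. FIT3 minus that median was -0.95, -1.20, -0.69 and -0.98, with 1, 3, 4 and 3 of the others lower. FIT1 minus the median was -0.08, 0.70, 0.31 and 1.13, so FIT1 lay near the middle of the other mannoproteins on array 1 and in their upper part on arrays 2 to 4. By mean ratio, FIT1 had 7 of the 31 above it. These distances describe the pattern by which FIT2 and FIT3 were chosen and were not tested.

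**Figure D4:**
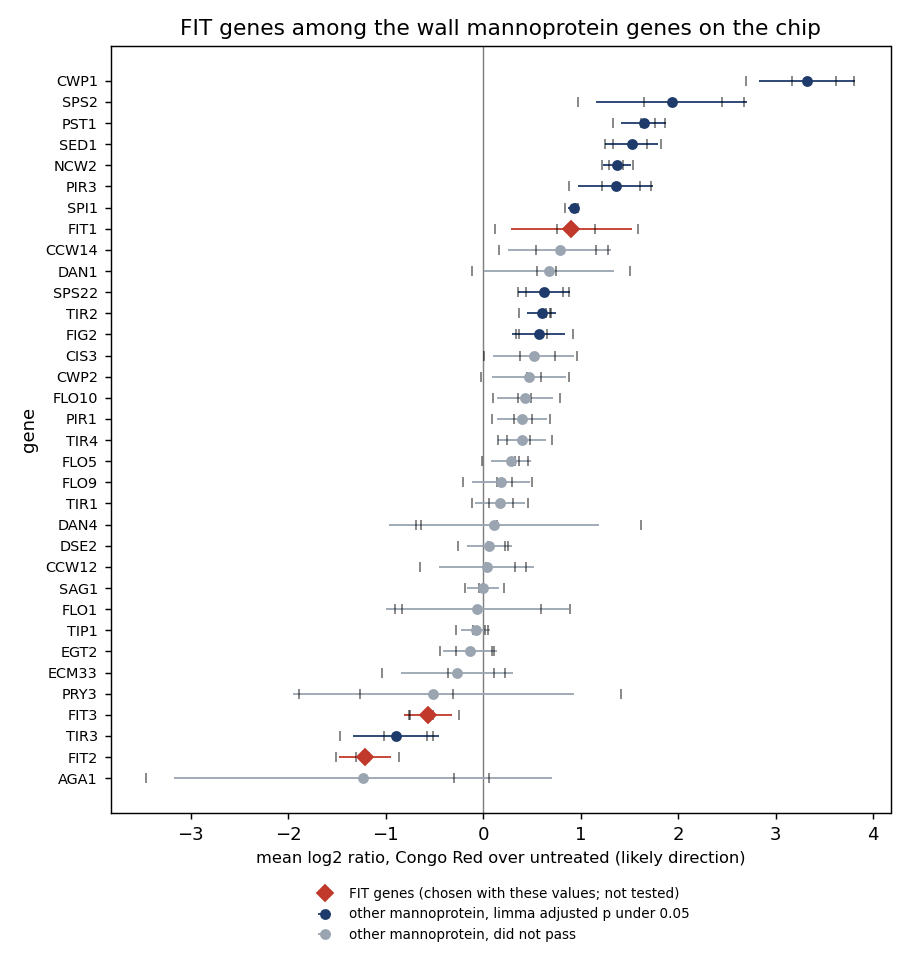
Mean log2 ratio over arrays (x axis, Congo Red over untreated, likely direction; bars are the SD, ticks the single arrays) of the FIT genes (red diamonds) and the 31 other wall mannoprotein genes (circles, dark where limma adjusted p was under 0.05), ordered by mean (y axis). FIT2 and FIT3 are at the lower end with AGA1 and TIR3, and FIT1 is in the upper part, next to SPI1 and CCW14.

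Little of the rest of iron uptake was on the array. Of the 43 other genes listed for siderophore uptake, other iron and copper uptake, and iron regulation and use, 3 were spotted: SMF1, CTR1 and GRX3. None of the ARN transporter or FRE reductase genes, and neither AFT1 nor AFT2, is among the named genes, and spots with no gene name here could not be assigned. The ratios of FIT1, FIT2 and FIT3 can therefore not be set beside those of the genes known to be switched together with them.

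The 3 iron genes that were measured had mean ratios between -0.17 and 0.06. SMF1 (YOL122C), a divalent metal transporter gene, stood at 0.05, -0.07, 0.19 and 0.08 on arrays 1 to 4. CTR1 (YPR124W), the copper transporter gene whose product feeds the copper-dependent iron oxidase, had -0.23, -0.29, -0.07 and -0.09. CTR1 was below 0 on every array, as FIT2 and FIT3 were, but at a mean of -0.17 ± 0.11 (SD, n = 4). GRX3 (YDR098C), a glutaredoxin gene whose product restrains Aft1 when iron is plentiful, had 0.01, -0.28, 0.42 and 0.02, with both signs. At a limma adjusted p under 0.05, 0 of the 3 passed (adjusted p = 0.764, 0.349 and 0.898), and 0 of the 3 had an unadjusted p under 0.05. Of all tested genes 20.7% passed, so a count of 0 among 3 genes does not set them apart. The smallest unadjusted p was that of CTR1, 0.168.

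In the R64 gene table, FIT2 and FIT3 are direct neighbours on the same chromosome, and FIT1 is on another. FIT2 and FIT3 are flanked by YOR381W-A and by FRE5, a putative reductase gene, neither of which is among the named genes of the array. The same holds for HSP31 and STL1 on either side of FIT1. The array held 20 pairs of neighbouring genes valued on all 4 arrays. FIT2 and FIT3 differed by a root mean square of 0.68 over the arrays, within the range of 0.27 to 3.58 over these pairs. Both were chosen for ratios below 0, which bears on this distance, so nothing is read from it or from their being the 1 pair of 20 with both genes below 0 on all arrays.

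The genes whose ratios lay nearest to those of FIT2, by root mean square difference over the 4 arrays among 327 genes, were HSP26, a small heat shock protein gene (0.36), YGP1, a secreted glycoprotein gene (0.37), WSC4, a gene of the wall sensor family (0.40), DCG1 (0.48) and HIT1 (0.50). All 5 means, between -1.07 and -0.79, lay above that of FIT2, as they had to. FIT2 had the lowest mean of the genes valued on all 4 arrays, and only such genes were compared. For FIT3 the nearest were ECM1, which encodes a ribosome assembly factor (0.07), ERO1, the gene of an oxidase of the endoplasmic reticulum (0.12), RPC34, a subunit gene of RNA polymerase III (0.19), STM1, a ribosome-associated protein gene (0.20), and MID2, a wall sensor gene (0.22). ECM1 followed FIT3 array by array, with -0.61, -0.77, -0.22 and -0.47. No gene was among the 5 nearest to both. FIT3 was number 9 from FIT2, and FIT2 number 157 of 327 from FIT3. Their distance is the same 0.68 both ways, and the ranks differ by how many genes lie near each. Both were chosen by these ratios, so nothing is read from the ranks.

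The genes nearest to FIT1 were CCW14 (0.19) and DAN1 (0.25), both in the mannoprotein list, followed by 3 genes outside it, PRY2 (0.32), VPS16 (0.34) and TOH1 (0.34). CCW14, which encodes a mannoprotein of the inner wall layer, had 0.16, 1.16, 0.54 and 1.28 on arrays 1 to 4. DAN1, a mannoprotein gene known for expression without oxygen, had -0.11, 0.75, 0.55 and 1.51. In CCW14, DAN1 and FIT1 alike, array 1 was the lowest and array 4 the highest, with both arrays of Congo Red in channel 1 above both others. The 2 genes were picked for closeness to FIT1 on these same values, so a shared order is no separate result. It is not particular to them: other genes of the mannoprotein list had it too, among them SED1 (1.25, 1.68, 1.33 and 1.82) and PIR3 (0.88, 1.61, 1.22 and 1.73). The neighbours of FIT1 were looked up after its values were seen.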

How the data were processed

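The deposited values, log2 ratios per spot, come from the series value table, without signal intensities. The sources used here name no scanner, background correction, normalization or numerator. Of 896 spots, 724 have 1 gene in the platform's annotation, which is old, 10 have several and 162 none here; all 353 genes matched the R64 table, used for names and gene order. Spots of a gene were averaged per array. The 348 genes with values on at least 3 arrays were fitted with limma 3.58.1 (lmFit, eBayes) in R 4.3.3, against 0 and, in a second model, with a term for channel order. P-values were adjusted by Benjamini-Hochberg with a threshold of 0.05. The fits were tested on simulated data. The number of arrays limits the precision. How well probes tell related genes apart is not stated. Members and lists were chosen with earlier results of these data known. Named genes were the FIT genes, the tested iron genes, the 8 highest and 8 lowest mannoproteins of the list, the 5 genes nearest to FIT2 and to FIT3, and their chromosome neighbours. HOG1 and the neighbours of FIT1 lie outside this rule. Alternatives were centring and scaling, turned arrays, a channel order term, spot medians, spots tested singly, complete genes only, and each array left out in turn. Tables and figures used Python 3.11.15 and matplotlib 3.10.9.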

Additional observations from a re-analysis of the deposited data

Results flagged for a closer look

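Among 36 results with a value on all 4 arrays, 1 had a single array far from the other 3. VPS16, a vacuolar sorting gene that appears above only as near to FIT1, had a log2 ratio of 1.59 on array 4, while the next highest of its arrays was at 0.67. Chance marks about 1 in 20 such groups. No FIT gene had such an array.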

How the results depend on the processing

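With arrays 2 and 4 turned in sign, the mean log2 ratio was -0.025 for FIT2, 0.071 for FIT3 and -0.46 for FIT1, and 0 genes, mannoproteins included, passed the treatment test (limma; 33 at an unadjusted p under 0.05). A channel order term and spot medians could not change the mean of a FIT gene. The channel orders are balanced over the 4 arrays, and each of these genes has 2 spots. Centring gave means of -1.26 for FIT2, -0.62 for FIT3 and 0.85 for FIT1. Scaling as well gave -1.28 for FIT2, -0.62 for FIT3 and 0.83 for FIT1. Leaving out an array gave -1.33 to -1.11 for FIT2, -0.67 to -0.50 for FIT3 and 0.67 to 1.16 for FIT1, and -0.74 to -0.55 for FIT2 minus FIT3. A channel order term raised the calls to 121 of all genes (87 higher, 34 lower, against 59 and 13) and 17 of the other mannoproteins (15 and 2). Scaled arrays gave 63 higher and 30 lower. Leaving out an array gave 38 to 52 genes (38 without array 3, 42 without array 1, 47 without array 4; 3 to 6 of them lower, against 13) and 6 to 8 mannoproteins; without array 1, 3 or 4 no mannoprotein was called lower, so the call of TIR3 was lost. The 3 other iron genes had 0 calls under every alternative. The channel order coefficient ran from -0.19 to 0.14 for FIT2, from -0.054 to 0.20 for FIT3 and from -0.62 to -0.30 for FIT1 with an array left out, and the count of genes called for channel order was 11 (without array 1) to 30, and 49 after centring. The cause of these changes was not tested. A planned search for Aft motifs was not run. Each ratio already pairs the treated and untreated RNA of its array, so no further block could be added.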
